A study of Mus musculus with 6 samples.

Results

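The genes of DNA replication were examined in undifferentiated spermatogonia (A undiff) sorted from mice with and without an induced *Hras*G12V allele. The set held 39 genes, chosen by name, and all 39 were found among the 53657 gene names of the count files. They comprised the 6 subunits of the origin recognition complex (*Orc1* to *Orc6*), the licensing genes *Cdc6*, *Cdt1* and *Gmnn*, the 6 MCM helicase subunits *Mcm2* to *Mcm7*, 7 genes of helicase activation (*Cdc7*, *Mcm10*, *Cdc45* and *Gins1* to *Gins4*), 4 of the polymerases and primase (*Pola1*, *Prim1*, *Pold1* and *Pole*), 8 of the sliding clamp, clamp loader and single-strand binding protein (*Pcna*, *Rfc1* to *Rfc5*, *Rpa1* and *Rpa2*), 2 of Okazaki fragment maturation (*Fen1* and *Lig1*) and 3 of nucleotide supply (*Rrm1*, *Rrm2* and *Tyms*). All 39 passed the filter on low counts, which kept 19656 genes. None of them differed between the genotypes at an adjusted p under 0.1, and the 95% confidence interval of every one lay within 1 of 0 on the log2 scale.

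A cell copies its DNA once per cycle. In G1 the origin recognition complex, with CDC6 and CDT1, loads the ring-shaped MCM2-7 complex onto DNA in an inactive form, and geminin (the product of *Gmnn*) binds CDT1 to prevent a further round of loading. In S phase the kinase CDC7, CDC45 and the GINS complex convert the ring into the active helicase, behind which primase, the polymerases, the PCNA clamp and its RFC loader build the new strands. Spermatogonial stem cells and their progenitors divide mitotically throughout adult life to maintain sperm production, and RAS proteins relay growth factor signals that promote entry into the cell cycle.

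Polyadenylated RNA was sequenced from 3 WT and 3 MUT samples, each from a separate adult mouse, collected 3 months after tamoxifen, which was given in 2 courses. Mice of both groups carried *Gfra1-creERT2* and a floxed *tdTom* reporter on a mixed background of C57BL/6J, 129/Sv and Swiss Black, so that tamoxifen switched on tdTomato in cells with an active *Gfra1* promoter and in their descendants. MUT mice also carried the *FR-Hras*G12Vfl/- allele, in which recombination removes a wild-type copy of *Hras* and leaves the G12V copy under the endogenous promoter, and WT mice were littermates without it. Sorted cells were tdTomato-positive and bright for the surface protein MCAM. Recombination at *Hras* is separate from that at the reporter, so a sorted MUT cell need not carry the mutation, and bulk RNA does not tell a smaller number of cells of a type from less RNA per cell.

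The 6 libraries held 22729292 to 23550433 counts, and the 39 replication genes together took 0.535% to 0.595% of them. At these depths 3 counts correspond to 0.127 to 0.131 CPM (counts relative to library size, scaled by the TMM method), and the fewest counts of any member in any library were 209 (*Fen1* in MUT replicate 3). Counts on *Hras* were 1300, 1407 and 1542 in WT and 1600, 1594 and 1426 in MUT; they do not separate the alleles and so do not check the genotype labels. The reads at the mutated base, by which the study checked the genotype, were not analysed here. The reporter tdTomato was at 64.3, 65.2 and 56.2 CPM in WT and 66.4, 65.2 and 52.6 CPM in MUT. WT replicate 3 stood apart from the other WT libraries. Its chi-square per degree of freedom over genes was 27.6 and 20.5 against them, compared with 5.68 between WT replicates 1 and 2. MUT replicate 3 stood apart from the other MUT libraries to a lesser degree, at 11.1 and 9.75, compared with 4.67 between MUT replicates 1 and 2. The stem cell gene *Gfra1* was present in every library (147, 146 and 110.1 in WT and 133, 104 and 115 in MUT, in CPM), as were the differentiation genes *Kit* and *Stra8*, and no gene of the marker lists for 11 cell types or states was at 0 in any library.

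Many replication genes are known targets of the E2F transcription factors, which bind short GC-rich sites near the transcription start, and the promoters of 3 members are printed here because they show where such letters stand. RefSeq promoter windows on GRCm38.p6, from 250 bases before to 50 bases after the start, were given for 32 of the 39 members. At least 1 of the 4 E2F-type motifs searched (TTTGGCGC, TTTCGCGC, TTTGGCGG and TTTCCCGC, exact letters on both strands) was found in 15 of these 32, or 46.9%, compared with 2.70% of 27025 genes with a window and 4.55% of the 11851 of them that were tested for expression. The 15 were *Orc1*, *Orc3*, *Orc4*, *Cdc6*, *Cdt1*, *Mcm3*, *Mcm5*, *Mcm6*, *Mcm7*, *Gins3*, *Pola1*, *Pold1*, *Rfc3*, *Rpa1* and *Lig1*. Stretches before the start, free of annotated exons, follow for *Mcm5* (chr8:75109309-75109508, plus strand), *Mcm6* (chr1:128359706-128359855, minus strand) and *Pola1* (chrX:93632156-93632355, minus strand), each written 5′ to 3′ on the gene's strand with E2F-type matches in capitals.
Mcm5: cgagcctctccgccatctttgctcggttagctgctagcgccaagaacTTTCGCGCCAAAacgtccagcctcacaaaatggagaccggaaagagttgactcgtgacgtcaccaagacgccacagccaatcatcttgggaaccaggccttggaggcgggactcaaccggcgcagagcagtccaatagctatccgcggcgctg
Mcm6: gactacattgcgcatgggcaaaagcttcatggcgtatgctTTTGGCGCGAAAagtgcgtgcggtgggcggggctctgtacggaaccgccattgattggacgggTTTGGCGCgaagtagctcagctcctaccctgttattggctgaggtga
Pola1: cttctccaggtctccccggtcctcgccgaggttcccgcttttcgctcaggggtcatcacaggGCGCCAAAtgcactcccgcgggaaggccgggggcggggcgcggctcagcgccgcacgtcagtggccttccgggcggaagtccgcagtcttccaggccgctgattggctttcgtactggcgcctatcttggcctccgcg
In *Mcm5* a TTTCGCGC match on the gene's strand and a TTTGGCGC match on the opposite strand overlapped, from 153 to 142 bases before the start. *Mcm6* held the same overlapping pair in the other order, from 110 to 99 bases before its start, and a further TTTGGCGC from 47 to 40 bases before it. *Pola1* held a single match, to TTTGGCGC on the opposite strand. The NF-Y box CCAAT was found in 65.6% of the 32 members and 41.1% of all genes with a window, and the CHR letters TTTGAA or TTCGAA in 21.9% and 21.7%. These matches describe letters in the windows and not binding, which was not measured.

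Per exon length, the replication genes ranged over more than an order of magnitude in level, and the MCM subunits lay close together near the top. Levels per length are given in RPKM, the TMM-scaled CPM per 1000 exon bases, as means over the 6 libraries. The exon bases of a gene are all its annotated exon bases, which can exceed the length of the transcripts present. Comparisons of level between genes therefore depend on the annotation as well as on expression. *Mcm3* had the highest level of the set (80.6 RPKM), followed by *Mcm7* (80.1) and the RPA subunit *Rpa2* (75.5). *Mcm6*, *Mcm5*, *Mcm4* and *Mcm2* followed at 70.3, 69.7, 63.2 and 61.9 RPKM, so that the highest of the 6 subunits of this equimolar ring exceeded the lowest by a ratio of 1.30. The nick-sealing ligase *Lig1* (70.4 RPKM) and *Gins4* (63.7 RPKM) lay among them. Within single libraries the ratio of the highest to the lowest MCM subunit was 1.28, 1.32 and 1.42 in WT and 1.37, 1.26 and 1.26 in MUT, and these ranges overlapped.

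Per exon length, subunits of the origin recognition complex, of GINS and of the clamp loader were spread more widely. The origin recognition genes ran from 6.80 RPKM (*Orc4*) to 31.8 RPKM (*Orc6*), a ratio of 4.68. *Orc4* has 7458 exon bases and *Orc6* 2469, with mean WT levels of 51.2 and 78.3 CPM, so much of that ratio came from length. The median MCM level per length was 4.04 to 4.24 times the median *Orc* level in WT and 4.09 to 4.25 times in MUT. Among the GINS genes, *Gins4* at 63.7 RPKM stood against *Gins1* at 15.2, *Gins3* at 8.27 and *Gins2* at 5.25 RPKM. The clamp *Pcna* was at 55.8 RPKM, the clamp loader genes ran from 12.4 (*Rfc3*) to 57.2 RPKM (*Rfc4*), and the catalytic subunits of the polymerases from 5.51 (*Pola1*) through 36.4 (*Pole*) to 56.4 RPKM (*Pold1*). The lowest levels belonged to *Pola1*, *Gins2* and the flap nuclease *Fen1* (4.46 RPKM), and *Fen1* still ranked above 52.8% of the genes tested.

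**Figure D1:**
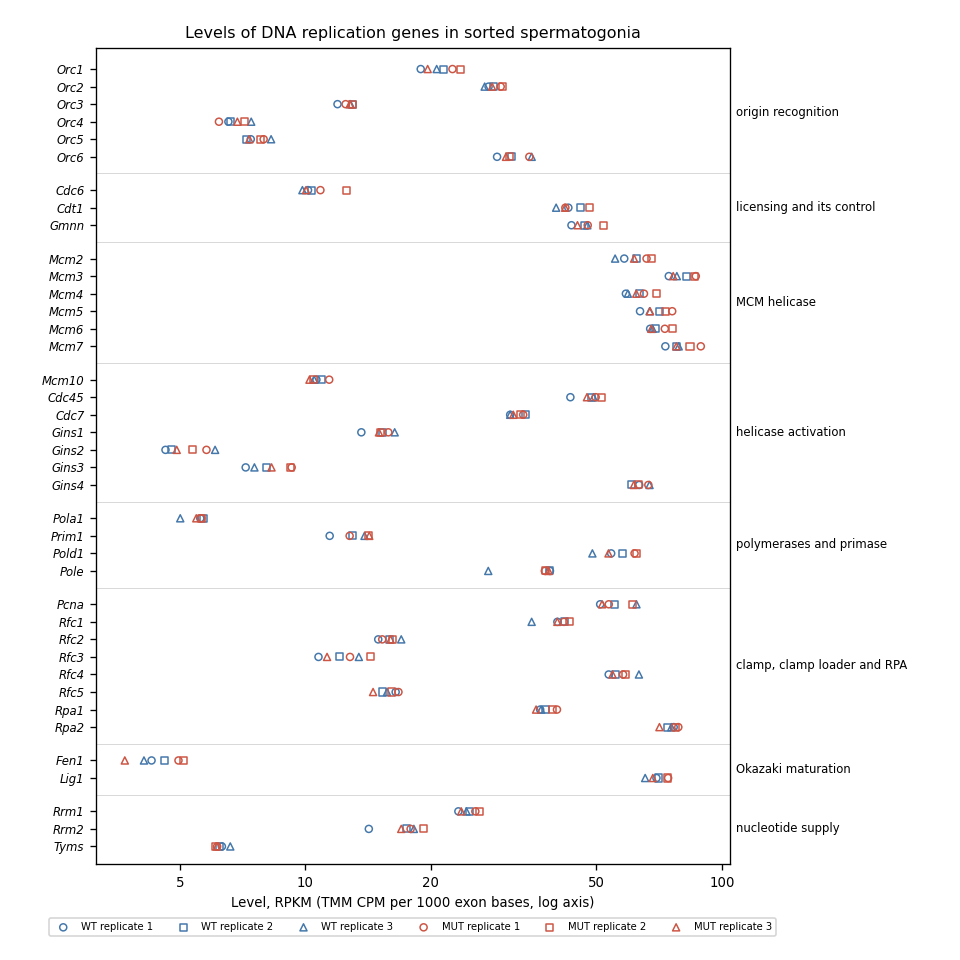
Level of each replication gene in each library, in RPKM (TMM CPM per 1000 exon bases) on a log axis, grouped by role; blue symbols are the 3 WT and red symbols the 3 MUT libraries. The MCM subunits sit together between 61.9 and 80.6 RPKM on average, whereas the other roles span wider ranges, and WT and MUT symbols of a gene lie close together.

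The low levels of *Fen1* and *Gins2* have to be read with how fragments were counted. Counting ignored the strand and dropped fragments that fell on exons of more than 1 gene. Of the exon bases of *Fen1*, 84.2% overlapped exons of genes on the opposite strand, mainly AC132148.3, and of those of *Gins2* 67.3% overlapped *Gse1*. For *Orc2* the share was 29.8%, with *Nif3l1*, and no other member exceeded 25%. Divided by the bases that no other gene shared, the mean level was 28.2 RPKM for *Fen1*, 16.1 for *Gins2* and 40.4 for *Orc2*. Near-identical copies also bear on the counts: 19.1% of the 50-base words of *Pcna* transcripts also occurred in *Pcna-ps2*, and 16.5% of those of *Mcm7* in Gm5487. Fragments that aligned to several places were not counted, so the levels of *Pcna* and *Mcm7* are uncertain to that extent, while *Pcna-ps2* itself was counted at 16 to 28 fragments per library.

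**Figure D2:**
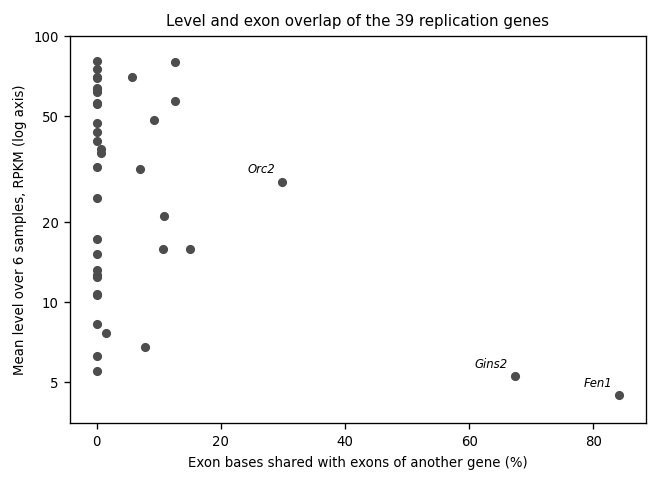
Mean level over the 6 libraries (RPKM, log axis) against the percentage of a gene's exon bases that lie on exons of another gene, 1 point for each of the 39 replication genes. *Fen1* and *Gins2*, at 84.2% and 67.3%, are the 2 members with the lowest levels, and *Orc2* follows at 29.8%.

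The comparison of MUT with WT asked whether the induced allele changed expression in these cells. Of the replication genes, 33 of 39 had a positive log2 fold change, with a median of 0.067, and none passed the test. With edgeR's quasi-likelihood test and Benjamini-Hochberg adjustment over all genes, 0 of 39 members were called at an adjusted p under 0.1, against 0.0102% of the table (2 of 19656 genes). The adjusted p was 0.998 for every member. At an unadjusted p under 0.05, 1 of 39 members passed (*Gins3*), against 2.78% of all genes. DESeq2 called 0 members and gave none an unadjusted p under 0.05, against 1.17% of the genes in that fit. With a block for the replicate number, the table held 13 calls (0.0661%), again with 0 members, of which the lowest adjusted p was 0.74 (*Gins3*), and 1 of 39 members had an unadjusted p under 0.05, against 6.60% of all genes.

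The 33 positive values were 84.6% of the members, against 51.8% of all genes tested and 58.1% of those above 10 CPM. The members' median corresponds to a 1.05-fold difference, and the median log2 fold change of all genes was 0.0066. The members' values ran from -0.060 (*Tyms*) to 0.23 (*Gins3*). These are descriptions, since the genes of 1 pathway are not independent and the same 6 libraries give all of them. The 95% intervals set the size of difference that remained possible. Of the members, 39 of 39 lay within 1 of 0, against 81.6% of all genes and 10322 of the 10583 genes above 10 CPM. The bounds farthest from 0 were 0.45 for *Gins3* and -0.27 for *Fen1*, a 1.37-fold increase and a reduction to 0.831 of the WT level. Only 1 member, *Gins3*, was higher in every MUT than in every WT library (4.69% of all genes), and only 1, *Tyms*, was lower (3.00%).

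**Figure D3:**
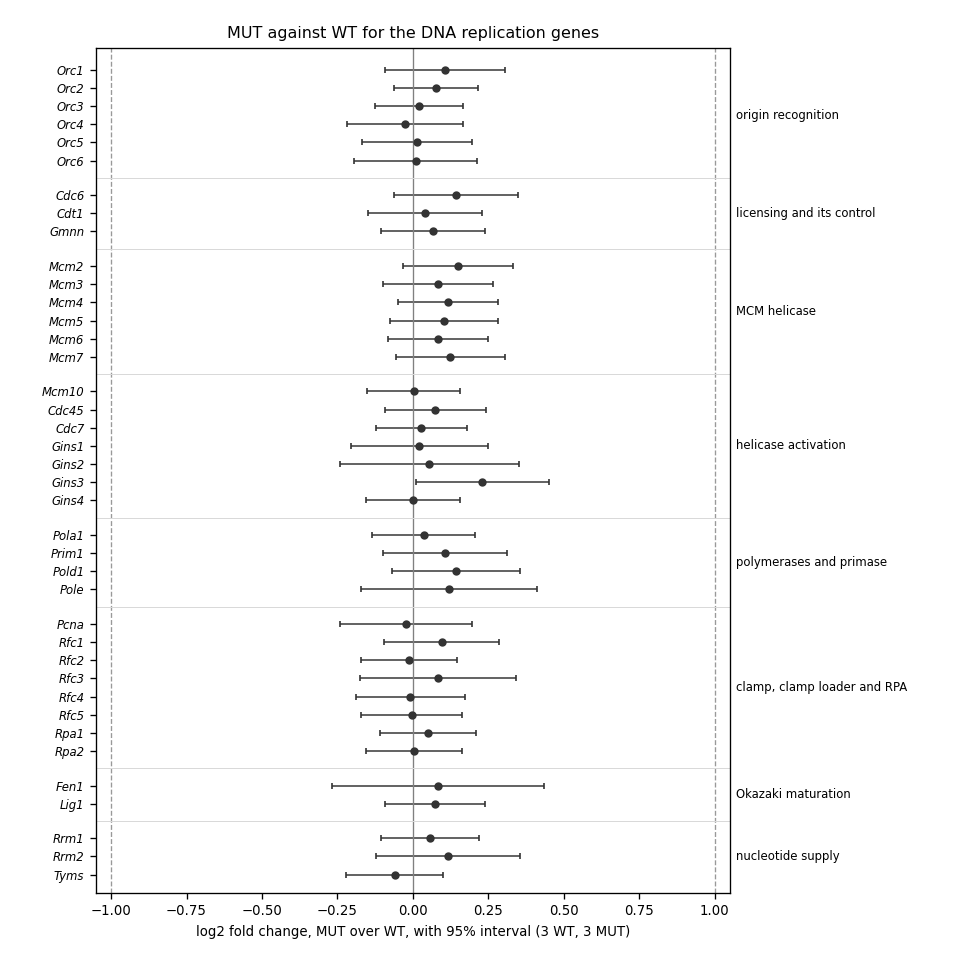
Log2 fold change of MUT over WT for each replication gene (points) with its 95% confidence interval from the edgeR fit (bars), grouped by role, 3 WT and 3 MUT libraries. Dashed lines mark a 2-fold change in either direction; no interval reaches them, and of the 39 intervals only that of *Gins3* lies wholly above 0.

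Of the origin recognition genes, which encode the 6 subunits of the complex that marks origins, 5 of 6 had a positive log2 fold change and none passed the test. *Orc1* (chr4:108579423-108614833), whose product varies over the cell cycle, had the largest value, at 65.9, 74.7 and 71.9 CPM in WT and 78.5, 82.0 and 68.4 CPM in MUT. The 2 highest libraries were MUT replicates 2 and 1, but MUT replicate 3 lay below 2 of the WT libraries. The log2 fold change of *Orc1* was 0.11 ± 0.087 (SE), with a 95% interval of -0.091 to 0.31. *Orc4* (chr2:48902824-48950277) had the smallest, with 48.8, 49.4 and 55.3 CPM in WT and 46.3, 53.3 and 51.3 CPM in MUT and a log2 fold change of -0.025 ± 0.085 (SE). Its groups overlapped, and *Orc2*, *Orc3*, *Orc5* and *Orc6* had log2 fold changes of 0.0094 to 0.076.

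Of the licensing genes, the loader *Cdc6* (chr11:98907801-98923940) was measured at 53.1, 54.1 and 51.5 CPM in WT and 56.9, 65.8 and 52.5 CPM in MUT. A single library, MUT replicate 2, stood above the other 5, and the log2 fold change was 0.14 ± 0.090 (SE) with a 95% interval of -0.063 to 0.35, and 0.036 without that library. *Cdt1* (chr8:122568015-122573554), which brings the helicase to the origin, was at 134, 144 and 126 CPM in WT and 132, 151 and 132 CPM in MUT. Its WT and MUT values were interleaved, with a log2 fold change of 0.040 ± 0.082 (SE) and an interval of -0.15 to 0.23. *Gmnn* (chr13:24751845-24761923), the inhibitor of CDT1, was at 63.8, 68.7 and 69.7 CPM in WT and 69.8, 76.0 and 66.0 CPM in MUT, and its log2 fold change was 0.067 ± 0.076 (SE), with an interval of -0.11 to 0.24. The ratio of *Gmnn* to *Cdt1*, each per exon length, was 1.02, 1.02 and 1.19 in WT and 1.13, 1.08 and 1.07 in MUT. The RNA of the 2 genes therefore stood at similar levels per exon length in all 6 libraries, and the ratio did not separate the groups (exact two-sided permutation p = 0.9). Their proteins were not measured.

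All 6 MCM subunits had positive log2 fold changes, with a median of 0.11, and none passed the test. The largest was that of *Mcm2* (chr6:88883474-88898780), at 406, 434 and 386 CPM in WT and 459, 472 and 428 CPM in MUT. MUT replicates 1 and 2 were the highest libraries, while MUT replicate 3 lay below WT replicate 2. The log2 fold change of *Mcm2* was 0.15 ± 0.080 (SE), with a 95% interval of -0.031 to 0.33 and an unadjusted edgeR p of 0.0932. *Mcm3* (chr1:20802968-20820312) was at 279.8, 309 and 293 CPM in WT and 325, 322 and 287 CPM in MUT. *Mcm4* (chr16:15623897-15637400) was at 211, 228 and 213 CPM in WT and 233, 251 and 224 CPM in MUT. In both, MUT replicate 3 again lay within the WT range.

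*Mcm5* (chr8:75109569-75128439) was at 254, 283 and 268 CPM in WT and 303, 293 and 269 CPM in MUT. *Mcm6* (chr1:128331590-128359664), whose promoter held 3 E2F-type matches, was at 314, 324 and 318 CPM in WT and 340.4, 355 and 316 CPM in MUT. *Mcm7* (chr5:138164583-138172422) was at 324, 345 and 349 CPM in WT and 394, 371 and 344 CPM in MUT. The pattern of *Mcm2* recurred in all 3, with MUT replicates 1 and 2 above every WT library and MUT replicate 3 inside the WT range. The log2 fold changes of *Mcm3* to *Mcm7* were 0.083, 0.12, 0.10, 0.082 and 0.12, and the upper 95% bound of the 6 subunits did not exceed 0.33, a 1.26-fold difference. Exact two-sided permutation tests over the 20 assignments of the samples gave p of 0.2 or 0.3 for each subunit, and the smallest p that 3 samples against 3 allow is 0.1.

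The 7 genes of helicase activation all had positive log2 fold changes, with a median of 0.029. *Gins3* (chr8:95633453-95645060), a subunit of the GINS tetramer, showed the clearest difference between the groups among the 39, at 19.5, 21.9 and 20.5 CPM in WT and 25.1, 24.9 and 22.5 CPM in MUT. The lowest MUT library lay above the highest WT library, and the log2 fold change was 0.23 ± 0.097 (SE), with a 95% interval of 0.0091 to 0.45. Its unadjusted edgeR p was 0.043 and its adjusted p 0.998, and the exact two-sided permutation p was 0.1, the smallest possible. The other GINS subunits did not show this: *Gins4* (chr8:23226616-23237659) was at 85.4, 81.8 and 90.4 CPM in WT and 89.9, 85.1 and 82.9 CPM in MUT, with a log2 fold change of 0.0013 ± 0.068 (SE), and *Gins1* and *Gins2* had 0.021 ± 0.099 (SE) and 0.055 ± 0.13 (SE). *Cdc45* (chr16:18780447-18811987), which completes the active helicase, was at 97.5, 109.6 and 111 CPM in WT and 112, 116 and 107 CPM in MUT. WT replicate 1 was the lowest library and the other 5 overlapped, for a log2 fold change of 0.075 ± 0.073 (SE) and an interval of -0.092 to 0.24. Without WT replicate 1 it was 0.010. The kinase *Cdc7* had 0.029 ± 0.066 (SE), and *Mcm10*, which acts at helicase activation, 0.0023 ± 0.067 (SE).

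All 4 polymerase and primase genes had positive log2 fold changes, with a median of 0.11. *Pold1* (chr7:44532746-44548849), the catalytic subunit of the lagging-strand polymerase delta, was at 264, 280.0 and 238 CPM in WT and 299.9, 303 and 259.7 CPM in MUT. MUT replicates 1 and 2 stood above the other libraries, and the log2 fold change was 0.14 ± 0.092 (SE), with a 95% interval of -0.067 to 0.35. *Pola1* (chrX:93304767-93632155), of the primer-extending polymerase alpha, was at 49.3, 50.2 and 44.2 CPM in WT and 49.6, 49.6 and 48.3 CPM in MUT, with a log2 fold change of 0.037 ± 0.075 (SE). Here 1 WT library was low and the other 5 lay within about 2 CPM of each other, and without that library, WT replicate 3, the log2 fold change was -0.018. *Pole* (chr5:110286306-110337474), of the leading-strand polymerase epsilon, was singled out after its values were seen: it was at 432, 429.6 and 307 CPM in WT and 419.5, 421 and 429 CPM in MUT. WT replicate 3 alone was low, and without it the log2 fold change of *Pole* changed from 0.12 to -0.025. The primase gene *Prim1* had a log2 fold change of 0.11 ± 0.090 (SE).

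Of the clamp, clamp loader and RPA genes, 4 of 8 had a positive log2 fold change, and their median was -0.00020. *Pcna* (chr2:132249162-132253314), the clamp that tethers the polymerases, was at 122, 133 and 149.7 CPM in WT and 128, 147 and 124 CPM in MUT. Its values were interleaved, with a log2 fold change of -0.022 ± 0.096 (SE) and a 95% interval of -0.24 to 0.20. *Rfc1* (chr5:65261850-65335670), the large subunit of the loader, was at 243, 252 and 210.4 CPM in WT and 251, 259 and 243 CPM in MUT, and again WT replicate 3 was the lowest, for a log2 fold change of 0.095 ± 0.084 (SE), which was 0.022 without it. The small subunits *Rfc2* to *Rfc5* had log2 fold changes of -0.013, 0.083, -0.0091 and -0.0042, and *Rpa1* and *Rpa2*, which coat single-stranded DNA, 0.051 and 0.0038. The ratio of *Rfc4* to *Rfc1* per exon length, singled out after its values were seen, was 1.81 in WT replicate 3 and 1.33 to 1.39 in the other 5 libraries.

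The genes of Okazaki fragment maturation and nucleotide supply also overlapped between the groups, other than *Tyms*. *Fen1* (chr19:10199132-10204169), which removes flaps, was at 10.4, 11.2 and 9.93 CPM in WT and 12.0, 12.4 and 8.93 CPM in MUT. MUT replicate 3 was the lowest and MUT replicate 2 the highest library of all, and the log2 fold change was 0.083 ± 0.15 (SE), with an interval of -0.27 to 0.43. *Lig1* (chr7:13277283-13311433) was at 297, 301 and 279 CPM in WT and 317, 316 and 291 CPM in MUT, with a log2 fold change of 0.075 ± 0.072 (SE). *Rrm1* (chr7:102441695-102469771), the large subunit of ribonucleotide reductase, was at 257, 273 and 268 CPM in WT and 282, 288 and 261 CPM in MUT, and its log2 fold change was 0.058 ± 0.071 (SE). *Rrm2* (chr12:24708241-24714146), the small subunit, which limits the enzyme in S phase, was at 39.4, 48.4 and 50.5 CPM in WT and 49.6, 53.2 and 47.1 CPM in MUT. WT replicate 1 was low and the other 5 libraries were mixed, for a log2 fold change of 0.12 ± 0.10 (SE) and an interval of -0.12 to 0.35, and without that library it was 0.0072.

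*Tyms* (chr5:30058202-30073617), the thymidylate synthase, was the single member whose MUT values all lay below the WT values, at 38.4, 38.0 and 40.2 CPM in WT and 37.4, 37.1 and 37.4 CPM in MUT. The gap was small: 38.9 ± 1.19 CPM in WT and 37.3 ± 0.179 CPM in MUT (SD, n = 3 each), with a log2 fold change of -0.060 ± 0.070 (SE), an interval of -0.22 to 0.099 and an unadjusted edgeR p of 0.411. The exact two-sided permutation p for *Tyms* was 0.1, again the smallest possible.

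The replication genes deviated together within libraries. Relative to each gene's own mean over the 6 libraries, 32 and 34 of the 39 members were above it in MUT replicates 1 and 2, but 7 in MUT replicate 3, and 6, 22 and 17 in WT replicates 1, 2 and 3. The median deviations were -0.080, 0.0059 and -0.021 on the log2 CPM scale in WT and 0.055, 0.075 and -0.049 in MUT, while those of all genes lay between -0.00056 and 0.017. MUT replicate 3 thus ranged with the WT libraries for most members. *Rrm2* was the clearest case of a low WT replicate 1 and *Cdc6* of a high MUT replicate 2.

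**Figure D4:**
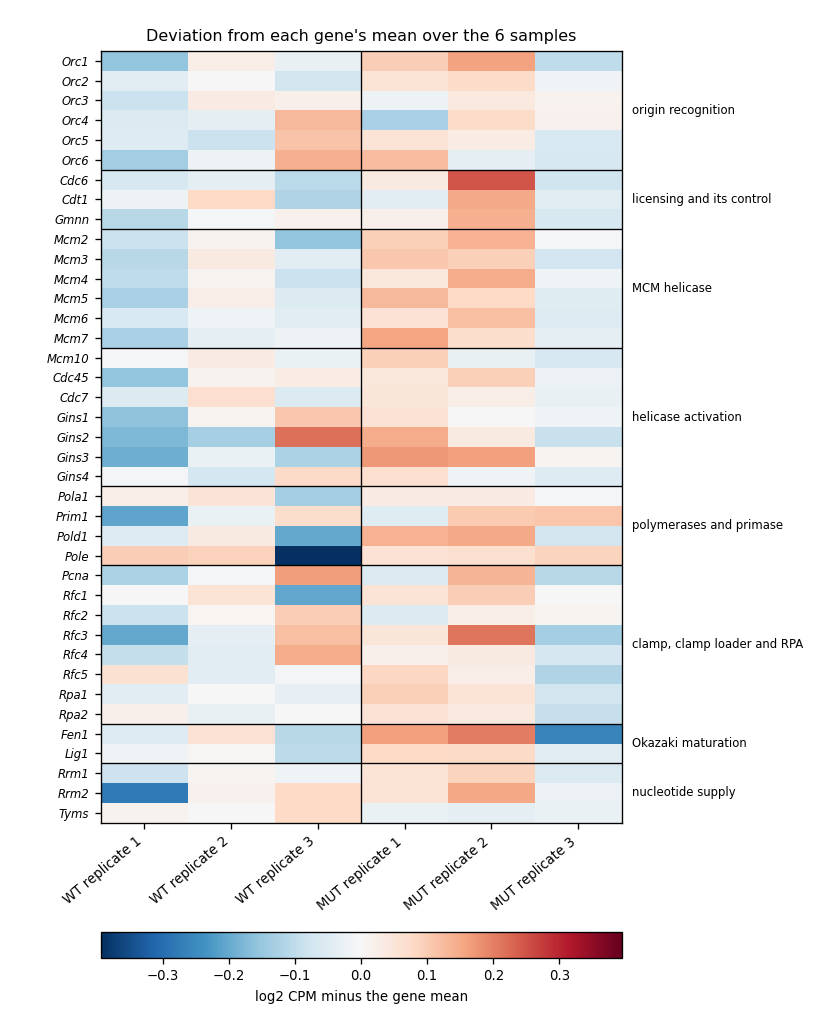
Deviation of each replication gene (vertical axis, grouped by role) from its mean over the 6 libraries, on the log2 CPM scale; red is above and blue below the mean, and the columns are the 3 WT and 3 MUT libraries. MUT replicates 1 and 2 are red for 32 and 34 of 39 genes, MUT replicate 3 for 7, and WT replicate 3 shows mixed signs with *Pole* as the deepest blue.

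The number of members that separated the groups depended on which libraries were used. With 1 library left out, separation is easier to meet, and over all genes the share higher in MUT rose from 4.69% to between 7.39% and 12.2%. Without MUT replicate 3, 18 of 39 members were higher in both MUT libraries than in all WT libraries, among them all of *Mcm2* to *Mcm7*, *Cdc6*, *Cdc45*, *Gmnn*, *Orc1*, *Pold1*, *Lig1* and *Rrm1*, against 12.2% of all genes. The members' median log2 fold change was then 0.10, 2 of 39 members had an unadjusted edgeR p under 0.05, against 8.64% of all genes, and still 0 were called. Without MUT replicate 2 the median was 0.019 and the positive values numbered 25. Without WT replicate 3, the library that stood farthest apart from its group, 33 values were positive, the median was 0.066 and 0 members were called. Without WT replicate 2, 6 members were higher in every MUT library (*Mcm2*, *Mcm4*, *Mcm5*, *Cdc7*, *Gins3* and *Orc2*), against 9.52% of all genes.

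In WT replicate 3 the deviation of the members was lower at longer exon length: over the 39 genes its correlation with log2 exon bases was r = -0.40, compared with r = 0.43 and 0.24 in WT replicates 1 and 2, and r = -0.11, -0.10 and 0.31 in MUT replicates 1 to 3. Over all 19656 genes r was 0.10, 0.025 and -0.28 in WT replicates 1 to 3. In MUT replicates 1 to 3 it was 0.18, 0.13 and -0.097, opposite in sign to the members. These are correlations across genes that share a library. The 19 longer members (4183 to 11160 exon bases) had a median deviation of -0.034 in WT replicate 3 and the 20 others 0.022. With each library's length trend removed, 31 members had a positive log2 fold change (*Mcm10*, *Orc3* and *Orc5* turned negative and *Rfc4* positive), the median was 0.065, and 0 were called.

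Summed over the 39 genes, the level was 5426, 5704 and 5411 CPM in WT and 5930, 6011 and 5519 CPM in MUT, or 5514 ± 165 and 5820 ± 264 CPM (SD, n = 3 each). MUT replicate 3 lay below WT replicate 2, so the sums overlapped. Between samples of the same replicate number the sum was higher in MUT each time, but the labels do not say that same-numbered mice were paired. Compared in this way, which was added after seeing the data, 10 of 39 members were higher in MUT in all 3 pairs (*Mcm2*, *Mcm4*, *Mcm5*, *Cdc6*, *Gins3*, *Orc2*, *Pold1*, *Prim1*, *Rfc1* and *Lig1*), against 14.1% of all genes, and 1 was lower (*Tyms*), against 13.0%. Markers of other cell types also differed between these libraries. The 4 markers of differentiating spermatogonia summed to 502, 563 and 545 CPM in WT and 592, 726 and 587 CPM in MUT. Of these, 2 of 4 had an unadjusted edgeR p under 0.05 (*Kit* and *Stra8*), against 2.78% of all genes, and 0 were called. The 5 spermatid markers summed to 857 to 1459 CPM in WT, to 593 and 620.2 CPM in MUT replicates 1 and 2 and to 1131 CPM in MUT replicate 3. The 6 Leydig cell markers summed to 12.9 to 21.1 CPM in 5 libraries and to 67.3 CPM in MUT replicate 3.

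**Figure D5:**
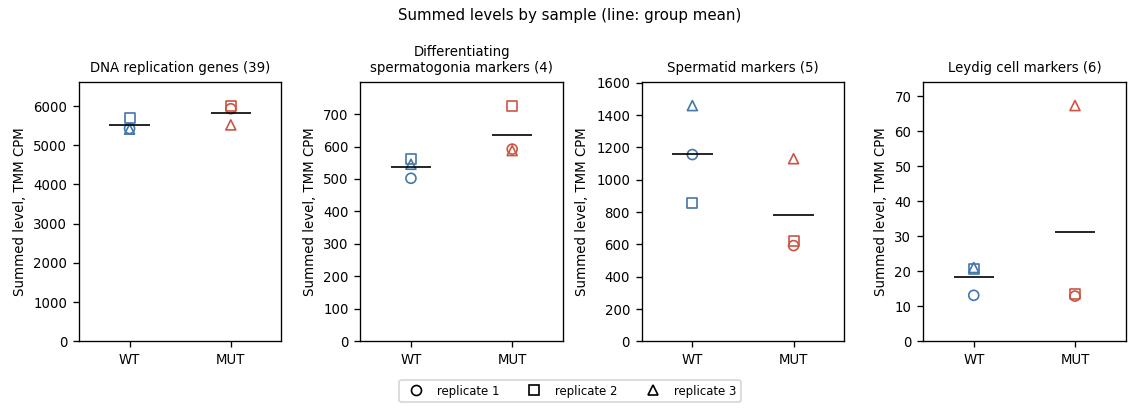
Summed level (TMM CPM, axes from 0) of the 39 replication genes and of 3 marker lists in each library; symbols give the replicate number, blue is WT, red is MUT, and lines are group means. The replication sums of MUT replicates 1 and 2 lie above all WT values and that of MUT replicate 3 within the WT range. Among the MUT libraries, replicate 3 has the most spermatid and Leydig cell signal, while WT replicates 1 and 3 have more spermatid signal than it (1156 and 1459 against 1131 CPM). A link between the panels was not tested.

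The 6 cycling markers, which include *Mki67* (434, 493 and 355 in WT and 465, 497 and 466 in MUT, in CPM), summed to 800.5 to 945 CPM in WT and 878 to 955 CPM in MUT and overlapped. The 8 markers of undifferentiated spermatogonia summed to 1776 to 2183 CPM in WT and 1956 to 2267 CPM in MUT, and the 6 spermatocyte markers to 554 to 778 CPM and 650.0 to 666 CPM. Macrophage markers summed to 659 to 1119 CPM in WT and 582 to 725 CPM in MUT, those of B cells and plasma cells to 50.6 to 133 and 25.7 to 55.4 CPM, and those of Sertoli cells to 55.2 to 139 and 84.3 to 117 CPM. At an unadjusted edgeR p under 0.05 there were 2 of 5 B cell and plasma cell markers and 1 each of the undifferentiated spermatogonia, spermatid and Sertoli cell markers, with none in the other 6 lists and 0 called in all 11. Of all genes, 2.78% had such a p. The part of any of these lists in the levels of the replication genes was not tested.

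The balance between subunits was compared as 8 ratios of levels per length, and all 8 overlapped between WT and MUT. *Rrm1* over *Rrm2* was 1.64, 1.42 and 1.34 in WT and 1.43, 1.36 and 1.39 in MUT. *Rpa2* over *Rpa1* was 2.09, 1.96 and 2.05 in WT and 1.96, 1.98 and 1.98 in MUT. The MCM median over *Cdc45* was 1.37 to 1.51 in WT and 1.42 to 1.50 in MUT, and so spanned a narrow range over the 6 libraries.

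Members with an E2F-type match in the promoter window, such as *Mcm5*, *Mcm6* and *Pola1* above, had a median log2 fold change of 0.083, with 14 of 15 positive. The 17 members with a window and no match had a median of 0.029, with 13 positive, and the ranges of the 2 sets overlapped (-0.025 to 0.23 and -0.060 to 0.15). *Mcm2*, with the largest value of the MCM subunits, was in the set without a match. The 7 members without a window are in neither set, and a difference between the sets was not tested.

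Other genes of the replication fork also differed little between the groups. Of 39 further genes listed by role, which include the remaining polymerase subunits, the fork protection genes *Timeless*, *Tipin* and *Clspn*, and the chromatin assembly genes *Chaf1a* and *Chaf1b*, all were tested and 0 were called. Their log2 fold changes were positive for 31 of 39, against 51.8% of all genes tested and 58.1% of those above 10 CPM. The median was 0.038 and the range -0.19 to 0.23. At an unadjusted edgeR p under 0.05, 2 of 39 passed, 1 in each direction, against 2.78% of all genes. *Wdhd1*, which links the helicase to polymerase alpha, was at 277, 289 and 267 CPM in WT and 314, 337 and 303 CPM in MUT. Every MUT library was above every WT library, and the log2 fold change was 0.20 ± 0.074 (SE) with an unadjusted edgeR p of 0.0265. *Dut*, whose enzyme removes dUTP so that uracil is kept out of DNA, was at 94.4, 90.8 and 101 CPM in WT and 85.2, 83.9 and 82.2 CPM in MUT, lower in every MUT library, with -0.19 ± 0.065 (SE) and an unadjusted edgeR p of 0.0201. Their adjusted p was 0.998.

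Of the 13 E2F, DP and pocket protein genes, the transcriptional regulators of this programme, 0 were called and none had an unadjusted edgeR p under 0.05. Of all genes, 2.78% passed that threshold. The log2 fold change was positive for 9 of 13, against 51.8% of all genes tested and 58.1% of those above 10 CPM. *E2f8*, an atypical repressor of the family, had the largest value, at 22.0, 21.5 and 19.0 CPM in WT and 25.1, 25.0 and 22.0 CPM in MUT. Its MUT libraries all lay above its WT libraries, though the nearest pair both round to 22.0 CPM, for a log2 fold change of 0.21 ± 0.10 (SE) and an interval of -0.028 to 0.45. The pocket protein gene *Rbl2* had the lowest, at 15.0, 12.5 and 13.9 CPM in WT and 9.53, 9.80 and 14.1 CPM in MUT, where MUT replicate 3 lay within the WT range and the log2 fold change was -0.31 ± 0.17 (SE), with an interval of -0.70 to 0.084.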

How the data were processed

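Raw counts of fragments per gene name were deposited by the authors for each of the 6 samples, made with featureCounts 1.6.2 on paired reads and the GENCODE annotation with a tdTomato entry. Counting disregarded strand and left out multi-mapping and ambiguous fragments, and values were not normalized, filtered or pooled. The submitters' processing notes name STAR, FastQC and GRCm38.p6. Libraries were stranded and polyadenylated. Groups and replicate numbers came from the sample labels.

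The members and gene lists were chosen with earlier results of these data known. Counts were scaled by TMM in edgeR 4.0.16 (R 4.3.3), filterByExpr kept 19656 of 53657 genes, and MUT was set against WT by the quasi-likelihood test on genotype alone, adjusting p over all genes (Benjamini-Hochberg, FDR of 0.1). Standard errors and 95% intervals come from that fit. RPKM is TMM CPM per 1000 exon bases of the deposited gene length. Exact permutation tests were two-sided on CPM. The script was tested on simulated counts.

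Same-numbered samples deviated together (r = 0.31, 0.18 and 0.39 over 10583 genes above 10 CPM), as did WT replicate 2 and MUT replicate 1 (r = 0.32), and the numbers come from the labels, so a fit with the replicate number as a block was run as an alternative. Other alternatives were DESeq2 1.42.0 with its defaults, its size factors in edgeR, no filter, at least 10 counts in every sample, an FDR of 0.05, CPM without TMM, and each library left out in turn. A correction for exon length was added after seeing the data. Genes given sample by sample were the MCM, licensing and nucleotide genes, *Cdc45*, *Pcna*, members with an unadjusted p under 0.05 or groups that did not overlap, and the largest and smallest fold change of each role. Of the further lists, genes with an unadjusted p under 0.05 were named, or, with none, the largest and smallest. Depth per library (22729292 to 23550433 counts) differed little. Floors cover counting error only. Shared 50-base words were counted in GENCODE vM21 transcripts of the same build. Reads at the *Hras* mutation were not analysed here.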

Additional observations from a re-analysis of the deposited data

How the results depend on the processing

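No replication gene was called under any alternative. Over the whole table, against 2 genes, DESeq2 called 9, no filter 5, at least 10 counts in every sample 0 (479 at an unadjusted p under 0.05), an FDR of 0.05 1, the replicate block 13, DESeq2 with the block 55, the exon length correction with the block 13, and the fits without 1 library 0 (without MUT replicate 2, 292 at an unadjusted p under 0.05) to 6 (without MUT replicate 3). The block changed no call of a member, and raised the genes at an unadjusted p under 0.05 from 547 to 1297. Members at an unadjusted p under 0.05 numbered 0 with DESeq2, against 1.17% of all genes, and 0 with DESeq2 and the block, against 1.64%. They numbered 0 with no filter, against 2.90%, and 0 to 2 without 1 library, against 1.44% to 8.64%. Members higher in every MUT library numbered 2 (*Gins3* and *Orc2*) with CPM without TMM (3.69% of all genes) and 1 to 18 without 1 library (7.39% to 12.2%), while members lower numbered 1 (4.08%) and 1 to 2 (5.06% to 13.9%). The median log2 fold change ran from 0.019 (without MUT replicate 2) to 0.10 (without MUT replicate 3), and positive values from 25 to 36.

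Of 546 combinations of member and alternative, 492 kept their direction and 54 reversed, in 20 members, and none was called. With at least 10 counts in every sample, *Mcm10* became -0.010, *Gins4* -0.011, *Orc6* -0.0032 and *Rpa2* -0.0087. With the exon length correction, *Mcm10* became -0.025, *Orc3* -0.00067, *Orc5* -0.0100 and *Rfc4* 0.034, and with the block as well *Mcm10* -0.026, *Orc5* -0.0062 and *Rfc4* 0.033. Without 1 library, the log2 fold changes of those that reversed ranged from -0.052 to 0.035 for *Mcm10*, -0.00013 to 0.058 for *Cdc7*, -0.056 to 0.083 for *Gins1*, -0.027 to 0.19 for *Gins2*, -0.045 to 0.040 for *Gins4*, -0.024 to 0.035 for *Orc3*, -0.038 to 0.075 for *Orc5*, -0.062 to 0.086 for *Orc6*, -0.019 to 0.17 for *Rfc3*, -0.054 to 0.053 for *Rfc5*, -0.031 to 0.051 for *Rpa2*, -0.041 to 0.079 for *Cdt1*, -0.082 to 0.035 for *Orc4*, -0.11 to 0.059 for *Pcna*, -0.018 to 0.060 for *Pola1*, -0.025 to 0.19 for *Pole*, -0.066 to 0.033 for *Rfc2*, -0.066 to 0.066 for *Rfc4*, -0.0028 to 0.11 for *Gmnn* and -0.015 to 0.22 for *Fen1*. The cause was not tested. Every member had at least 209 counts in each library, and the p-values rest on 3 mice per group.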
